A study of Mus musculus with 8 samples.

Results

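The genes described here encode the proteins that hold epithelial cells together: 40 genes of adherens junctions, desmosomes, tight junctions, gap junctions and the apical polarity and membrane protease machinery that goes with them. They were listed by gene symbol, and the list was drawn up with earlier results of these data known. All 40 were found on the array, through 60 of 39429 gene probes, and each was represented by its brightest probe among the 30139 names on the array. RNA came from mSCC-20, a mouse cutaneous squamous cell carcinoma line of strain FVB/N, transfected with a control microRNA (NC), miR-193b-3p or miR-365a-3p. The 0.2 set (amount label 0.2 µg) held NC arrays 1 and 2 and miR-193b arrays 1 and 2, and the 0.6 set (0.6 µg) held NC arrays 3 and 4 and miR-365a arrays 1 and 2. Every sample had a labelled RIN of 10. Whether the arrays of a group stood for separate cultures was not labelled, so each p-value is set against array-to-array spread that may be technical only, within this single line.

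Adherens junctions and desmosomes are the anchoring contacts of squamous epithelium. In both, cadherins bind across the gap between cells, and catenins or plakins tie them to actin or to keratin filaments. Tight junctions seal the space near the cell apex with claudins and MARVEL-domain proteins, scaffolded by zonula occludens proteins and cingulin, while connexins form gap junction channels. A microRNA binds messenger RNAs mainly through its seed, the bases 2 to 8 of the mature strand, and the transcripts it pairs with tend to fall.

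The mature mouse strands, read from RefSeq on GRCm38.p6, are shown because their seeds differ, so that the microRNAs need not act on the same messages. Capitals mark the seed. Mir193b lies at chr16:13449570-13449591 and Mir365-1 at chr16:13453895-13453916, both on the plus strand. A further locus at chr11:79726467-79726488 gives an identical miR-365-3p strand.
mmu-miR-193b-3p: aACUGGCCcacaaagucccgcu
mmu-miR-365-3p: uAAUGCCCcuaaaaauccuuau
The DNA complements of the seeds, GGCCAGT and GGGCATT, occurred in 0 of the 60 probes of these genes, against 0.294% and 0.312% of all 39429 probes. A probe is a short window on a transcript, and this search says nothing on the rest of it.

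On each array 51.4% to 54.6% (0.2 set) or 58.9% to 62.1% (0.6 set) of 43020 gene spots were well above background, and no spot was saturated. The keratinocyte genes Krt5, Krt14, Trp63, Itga6, Col17a1 and Krt10 were well above background on all 8 arrays and Krt1 on none, as 6 of 7 markers. The simple-epithelium keratins Krt8, Krt18 and Krt19 were also well above background on all 8. Of the markers of mesenchymal, stromal, blood, vascular and pigment cells, Fn1, Pdgfra, Cd68, Cd3e, Kdr and Mlana were well above background on all 8 arrays, and Cdh2, Col3a1, Dcn, Lum, Lyz2, Cdh5, Tek, Emcn and Dct on none. All 4 arrays of the 0.6 set lay on slide 4, while NC 1 and miR-193b 1 shared slide 1 and NC 2 and miR-193b 2 were on slides of their own. The number of arrays, 2 a group, limits the precision of every value below.

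Of the 40 genes, 33 were well above background on all 8 arrays and 35 could be tested. The connexin genes Gjb2, Gjb5 and Gjb6 and the embryonic claudin Cldn6 were not well above background on any array. Cldn1, a claudin of the epidermal barrier, was well above background on 1 of the 2 miR-365a arrays and on none of the other 6. It read -6.55 and -7.21 on NC 1 and 2, -4.88 and -6.85 on the miR-193b arrays, -7.79 and -5.87 on NC 3 and 4, and -6.93 and -5.87 on the miR-365a arrays. These levels, and those that follow, are log2 signals minus the array's 75th percentile, so that 0 is the level of that percentile.

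After miR-193b, 1 junction gene rose (F11r), 1 fell (Spint1) and 33 of 35 were not called at an adjusted p under 0.05 (limma, Benjamini-Hochberg over 17856 genes). That is 5.71% of the tested members, against 2.86% of all genes tested (1.71% higher and 1.14% lower). The median difference of the 35 was 0.28 on the log2 scale, against 0.05 over all genes, and 24 of the 35 differences lay above 0 (68.6%, against 55.8% of all genes). For 17 genes both miR-193b arrays lay above both NC arrays and for 7 genes below them, where the shares over all genes were 29.8% and 22.2% (52% together). The keratinocyte markers lay the same way: all 6 tested were above 0 (median 0.38, none called), and the summed signal of the list was 650 to 699 times the 75th percentile after miR-193b against 497 to 527 on NC 1 and 2. Their part in the junction gene shift was not tested. Within slide 1 the median was 0.19 with 22 of 35 above 0, and on slides 2 and 3 it was 0.24 with 24 above 0. All of this rests on 2 arrays a group: no call among these genes held when any 1 of the 8 arrays was left out. With slide as a block no call held either, but that fit compares only NC 1 with miR-193b 1, which share slide 1. It is thus no test of slide effects over all 4 arrays of the 0.2 set.

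After miR-365a, 5 junction genes rose (F11r, Marveld2, Cgn, Pard3 and Spint1), 1 fell (Cldn12) and 29 were not called. The share called, 17.1%, stood beside 15.8% of all genes tested, so the count was close to that of the array as a whole. Higher calls made up 7.77% of all genes and lower calls 7.99%, against 5 and 1 of these 35. The median was 0.18 (0.02 over all genes), and 26 of 35 differences lay above 0 (74.3%, against 52.9%). Both miR-365a arrays lay above both NC arrays for 15 genes and below them for 4, against 33.7% and 27.9% of all genes (61.6% together). Without miR-365a array 1 or array 2 only Marveld2 stayed called, without NC 3 Marveld2 and Cldn12, and without NC 4 F11r, Marveld2, Cgn and Cldn12. The median moved to -0.01 without NC 3 and to 0.33 without NC 4.

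**Figure D1:**
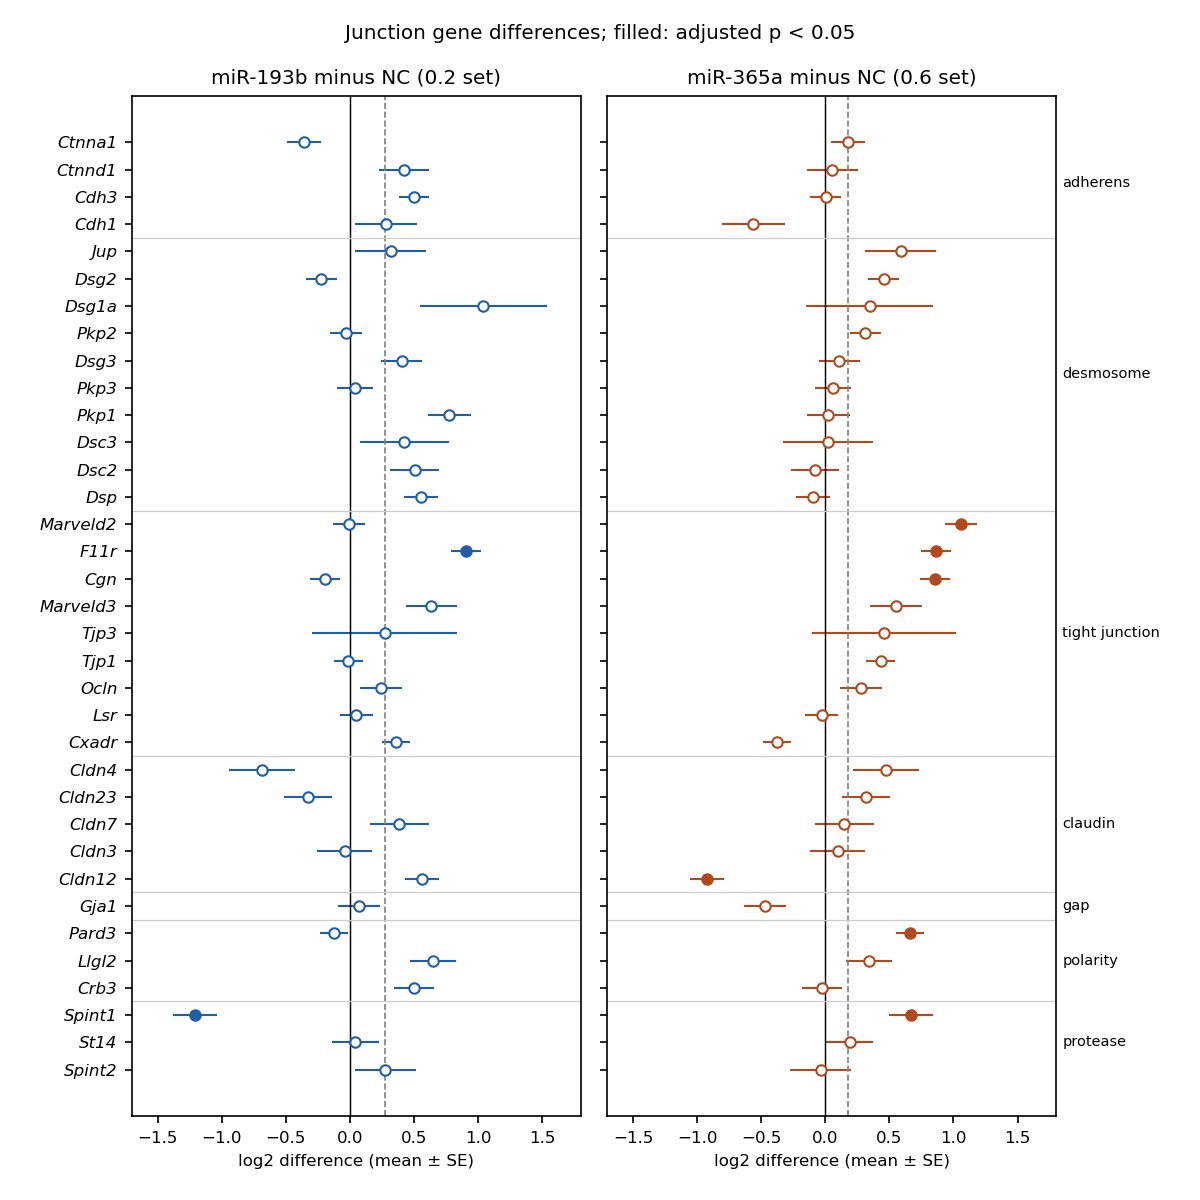
Log2 difference between each microRNA and the NC arrays of its set for the 35 tested junction genes, ordered by role, with standard errors of the fit. Filled points passed an adjusted p of 0.05 (2 after miR-193b, 6 after miR-365a), and the dashed line is the median of the 35 genes, 0.28 and 0.18.

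F11r, the junctional adhesion molecule JAM-A, an immunoglobulin-type receptor at tight junctions, rose after both microRNAs. Its probe at chr1:173393848-173393907 (mm9, plus strand) read 3.47 and 3.44 on NC 1 and 2 against 4.46 and 4.26 on the miR-193b arrays. In the 0.6 set it read 3.34 and 3.43 on NC 3 and 4 against 4.22 and 4.27 on the miR-365a arrays. Every treated array stood above all 4 NC arrays, which lay within a narrow band across the sets. The rise was 0.91 ± 0.12 (SE, n = 2 against 2) after miR-193b, 1.87-fold, with an adjusted p of 0.027 (limma). After miR-365a it was 0.86 ± 0.12, 1.82-fold, with an adjusted p of 0.0086 (limma). The difference between the effects was -0.04, with a 95% interval from -0.45 to 0.36 and an adjusted p of 0.91 (limma). F11r alone of the 35 genes was called in the same direction in both comparisons, which share no NC array. The share of all genes called in both was not counted, so this count has no background beside it. The miR-193b call was lost when any array was left out (adjusted p 0.055 to 0.083, limma) and with slide as a block (0.096). The miR-365a call was lost without miR-365a 1 (0.055), NC 3 (0.057) or miR-365a 2 (0.063).

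Spint1, which encodes the serine protease inhibitor HAI-1, a brake on the epithelial membrane protease matriptase, was called in opposite directions. The probe at chr2:119074929-119074988 (plus strand) read -1.75 and -2.005 on NC 1 and 2 and -3.03 and -3.14 on the miR-193b arrays. On NC 3 and 4 it read -0.91 and -0.58, and on the miR-365a arrays -0.19 and 0.04. The groups did not overlap in either set. Spint1 fell by 1.21 ± 0.17 after miR-193b, 2.31-fold, with an adjusted p of 0.031 (limma). The difference was -1.29 within slide 1 and -1.13 on slides 2 and 3. It rose by 0.67 ± 0.17 after miR-365a, 1.59-fold, with an adjusted p of 0.047 (limma). The miR-365a effect minus the miR-193b effect was 1.88 ± 0.24, with an adjusted p of 0.019 (limma). A second probe, overlapping the brightest, gave -1.21 (adjusted p 0.039) and 0.45 (0.17, limma), so the rise was not called there. Leaving out any array ended both calls and kept both directions (-1.34 to -1.08 after miR-193b and 0.51 to 0.83 after miR-365a). The NC arrays themselves differed by 1.13 between the sets (adjusted p 0.012, limma). St14, matriptase itself, and Spint2, the related inhibitor HAI-2, were not called: St14 differed by 0.04 ± 0.18 and 0.19 ± 0.18, and Spint2 by 0.28 ± 0.24 and -0.04 ± 0.24.

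Tight-junction membrane proteins and scaffolds gave 3 of the 5 rises after miR-365a, F11r among them, and 1 of 9 genes rose after miR-193b, where 7.77% and 1.71% of all genes were called higher. Marveld2 encodes tricellulin, the MARVEL protein of corners where cells meet. At chr13:101366266-101366325 (minus strand) it read -1.05 and -0.88 on NC 3 and 4 and 0.10 and 0.08 on the miR-365a arrays. On NC 1 and 2 it read -0.38 and -0.55, and on the miR-193b arrays -0.51 and -0.43. The miR-365a arrays were the highest of all 8, and in the 0.2 set the groups overlapped. Marveld2 rose by 1.06 ± 0.12 after miR-365a, 2.08-fold, with an adjusted p of 0.0058 (limma), and was called whichever array was left out. After miR-193b the difference was -0.01 (95% interval -0.31 to 0.29), and the effects differed by 1.07 ± 0.17 (adjusted p 0.033, limma). The difference between effects was no longer called without any array other than NC 2.

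Cgn encodes cingulin, a cytoplasmic scaffold between tight junctions and the actomyosin ring. The probe at chr3:94564031-94564090 (minus strand) read 1.08 and 1.27 on NC 3 and 4 and 2.00 and 2.06 on the miR-365a arrays. It read 1.05 and 1.12 on NC 1 and 2 and 0.91 and 0.88 on the miR-193b arrays. The 4 NC arrays lay close together and both miR-365a arrays stood well above them. Cgn rose by 0.86 ± 0.12 after miR-365a, 1.81-fold, with an adjusted p of 0.0085 (limma), a call lost without miR-365a 1 (0.054), NC 3 (0.053) or miR-365a 2 (0.062). After miR-193b it differed by -0.19 ± 0.12 (adjusted p 0.39, limma), and the effects differed by 1.05 ± 0.17 (adjusted p 0.031, limma), a difference not called when any array was left out.

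Of the other tight-junction scaffolds, Tjp1 (ZO-1) and Ocln (occludin) were not called after either microRNA. Tjp1 read 2.55 and 2.62 on NC 1 and 2, 2.63 and 2.51 on the miR-193b arrays, 2.08 and 2.07 on NC 3 and 4 and 2.57 and 2.44 on the miR-365a arrays. The miR-365a arrays exceeded NC 3 and 4 by 0.43 ± 0.11 (adjusted p 0.051, limma) but not NC 1 and 2 of the other set. Tjp1 was called after miR-365a with normexp background, quantile normalization, the deposited values, the filter on all 8 arrays and a trended robust variance (adjusted p 0.021 to 0.045). Ocln read -1.38 and -1.52 on NC 1 and 2 and -1.18 and -1.24 on the miR-193b arrays, then -1.90 and -1.48 on NC 3 and 4 and -1.45 and -1.38 on the miR-365a arrays. Its treated arrays stood above the NC arrays of their set by 0.24 ± 0.16 and 0.28 ± 0.16 (adjusted p 0.42 and 0.31, limma). Marveld3, a further MARVEL protein, differed by 0.64 ± 0.20 and 0.55 ± 0.20 (adjusted p 0.15 and 0.12). A dimmer Marveld3 probe for another transcript was called after miR-365a, at 0.75 (adjusted p 0.027, limma). Tjp3, Lsr and Cxadr were not called either. Cxadr, the coxsackie and adenovirus receptor, lay above 0 after miR-193b (0.36 ± 0.11, adjusted p 0.13) and below 0 after miR-365a (-0.37 ± 0.11, adjusted p 0.067). A dimmer Cxadr probe gave -0.98 after miR-365a (adjusted p 0.067) and a dimmer Ocln probe 0.71 after miR-193b (adjusted p 0.098), neither called. Lsr, an angulin of cell corners, differed by 0.05 (95% interval -0.26 to 0.37) and -0.03 (-0.34 to 0.28), with NC 3 apart below the other NC arrays.

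**Figure D2:**
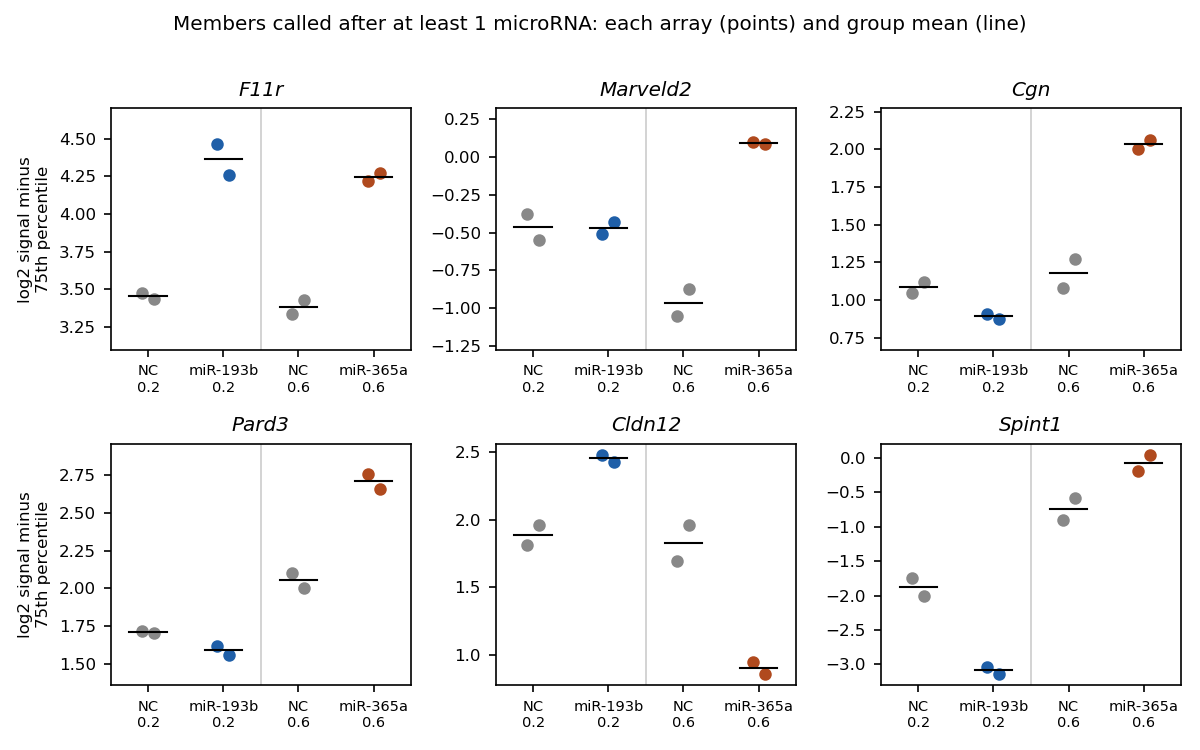
Level on every array, as log2 signal minus the array's 75th percentile, for the 6 junction genes called after either microRNA, with group means as lines. F11r is higher on all 4 treated arrays, Spint1 is lower after miR-193b and higher after miR-365a, and Cldn12 is lower after miR-365a.

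Among the 7 claudins, 5 were tested, and Cldn12 alone was called. Cldn12 encodes a claudin that lacks the usual binding motif for zonula occludens proteins. At chr5:5505223-5505282 (minus strand) it read 1.70 and 1.96 on NC 3 and 4 and 0.95 and 0.86 on the miR-365a arrays. On NC 1 and 2 it read 1.81 and 1.96, and on the miR-193b arrays 2.48 and 2.42. The NC arrays of both sets shared a level, with the miR-193b arrays above it and the miR-365a arrays below. Cldn12 fell by 0.92 ± 0.13 after miR-365a, 1.89-fold, with an adjusted p of 0.010 (limma), a call lost without miR-365a 1 (0.056) or miR-365a 2 (0.069). After miR-193b the difference was 0.56 ± 0.13 (adjusted p 0.082, limma), not called. The effects differed by -1.48 ± 0.19 (adjusted p 0.019, limma), which was kept without NC 2 and lost without any other array. Cldn3, Cldn4, Cldn7 and Cldn23 gave differences from -0.68 to 0.39 after miR-193b and from 0.10 to 0.47 after miR-365a, none called. Claudin medians were -0.04 and 0.15.

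No gene of the desmosome was called after either microRNA. After miR-193b the median of the 10 genes was 0.41, with 8 above 0, 5 in which the miR-193b arrays stood above both NC arrays and 1 in which they stood below (52% of all genes did not overlap). After miR-365a the median was 0.08, with 8 above 0. Dsp, desmoplakin, the plakin that anchors keratin filaments, read 3.15 and 2.98 on NC 1 and 2 and 3.59 and 3.64 on the miR-193b arrays. It read 3.63 and 3.54 on NC 3 and 4 and 3.61 and 3.37 on the miR-365a arrays. The miR-193b arrays stood at the level of NC 3 and 4, and NC 1 and 2 were the lowest of the 8. The Dsp differences were 0.55 ± 0.13 (adjusted p 0.083, limma) and -0.10 ± 0.13 (adjusted p 0.70). Jup, plakoglobin, read -2.13 and -2.85 on NC 1 and 2 and -2.02 and -2.33 on the miR-193b arrays, which overlapped. It read -2.11 and -1.75 on NC 3 and 4 and -1.49 and -1.19 on the miR-365a arrays, which did not, with differences of 0.32 ± 0.27 and 0.59 ± 0.27 (adjusted p 0.53 and 0.21, limma).

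The plakophilins join desmosomal cadherins to desmoplakin. Pkp1, the plakophilin of suprabasal keratinocytes, lay 0.77 ± 0.17 higher after miR-193b (adjusted p 0.068, limma) and 0.02 ± 0.17 higher after miR-365a. Pkp2 and Pkp3 differed by -0.03 to 0.31 over both comparisons. Of the desmosomal cadherins, Dsc2 and Dsg3 differed by 0.51 ± 0.19 and 0.41 ± 0.16 after miR-193b (adjusted p 0.20 and 0.22) and Dsg2 by 0.46 ± 0.12 after miR-365a (adjusted p 0.053, limma). A dimmer Dsg2 probe gave 0.26 after miR-193b, where the brightest gave -0.22, and neither was called. Further Dsg3 probes gave 1.29 and 0.57 after miR-193b, neither called. Dsg1a was not well above background on any array of the 0.2 set and Dsc3 on 2 of those 4, so their differences after miR-193b (1.04 ± 0.50 and 0.42 ± 0.35) rest on dim signals.

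**Figure D3:**
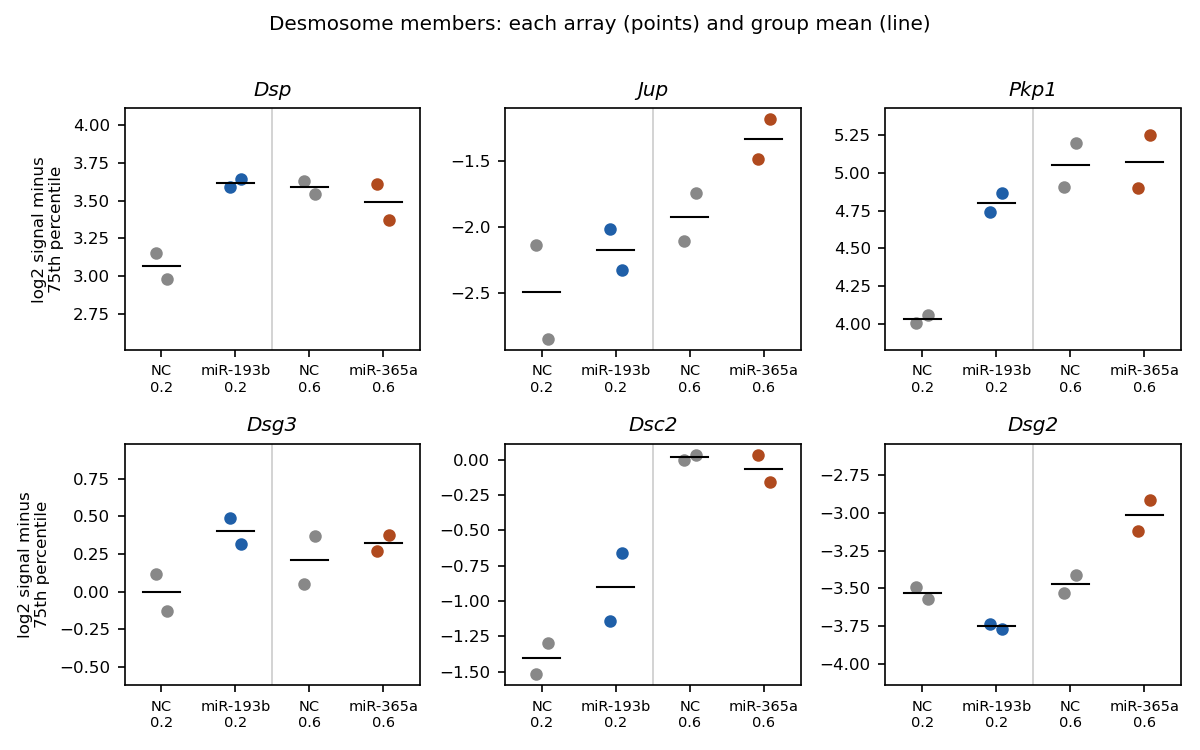
Level on every array, as log2 signal minus the array's 75th percentile, for 6 desmosome genes, with group means as lines and each panel on its own scale. For Dsp, Pkp1 and Dsc2 the miR-193b arrays stand above NC 1 and 2, and the NC arrays of the 0.6 set stand above those of the 0.2 set. None was called after either microRNA.

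The 4 adherens junction genes were not called in either comparison. Cdh1, E-cadherin, read -1.04 and -1.05 on NC 1 and 2 and -0.67 and -0.85 on the miR-193b arrays. On NC 3 and 4 it read -1.12 and -0.43, and on the miR-365a arrays -1.51 and -1.16. NC 4 stood apart from the other NC arrays, and both miR-365a arrays lay below every NC array. The differences were 0.28 ± 0.24 and -0.56 ± 0.24 (adjusted p 0.53 and 0.18, limma). Cdh3, P-cadherin of basal keratinocytes, differed by 0.50 ± 0.12 after miR-193b (adjusted p 0.079) and by 0.00 after miR-365a (95% interval -0.28 to 0.29). Ctnnd1, p120-catenin, which keeps cadherins at the membrane, differed by 0.42 ± 0.20 and 0.06 ± 0.20. Ctnna1, alpha-catenin, the link to actin, lay the other way after miR-193b, at -0.36 ± 0.13 (adjusted p 0.19), and at 0.18 ± 0.13 after miR-365a.

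Gja1, connexin 43, was the only connexin that could be tested. It read -0.39 and -0.71 on NC 1 and 2, -0.33 and -0.62 on the miR-193b arrays, -0.56 and -0.41 on NC 3 and 4, and -1.01 and -0.91 on the miR-365a arrays. The miR-365a arrays lay below all others, by -0.47 ± 0.16 against NC 3 and 4 (adjusted p 0.11, limma), and the miR-193b difference was 0.07 ± 0.16. Among the polarity genes, Pard3, the PAR complex scaffold that places tight junctions, rose after miR-365a. Its probe at chr8:129925900-129925959 (plus strand) read 2.10 and 2.00 on NC 3 and 4 and 2.76 and 2.66 on the miR-365a arrays, against 1.71 and 1.70 on NC 1 and 2 and 1.62 and 1.56 on the miR-193b arrays. The rise was 0.66 ± 0.11, 1.58-fold (adjusted p 0.014, limma), and the miR-193b difference -0.12 ± 0.11. The other 3 Pard3 probes gave -0.08, -0.02 and 0.06 after miR-365a, none called, and the mean of all probes gave 0.16 (adjusted p 0.41). The call was also lost without miR-365a 1 (0.091), miR-365a 2 (0.069), NC 3 (0.062) or NC 4 (0.064). Llgl2, a basolateral polarity protein, differed by 0.65 ± 0.18 and 0.34 ± 0.18, and Crb3, its apical counterpart, by 0.50 ± 0.16 and -0.02 ± 0.16, none called.

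**Figure D4:**
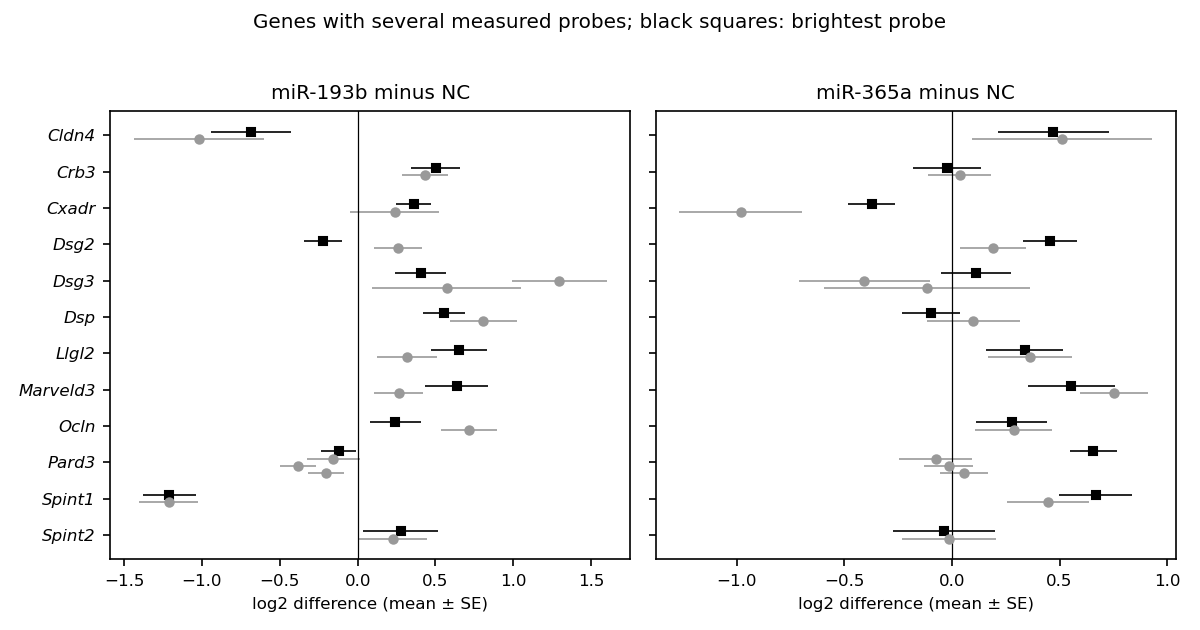
Log2 difference of every tested probe for the junction genes with more than 1 probe, after each microRNA. The probes of Pard3 and of Dsg3 lie apart, while both Spint1 probes are below 0 after miR-193b and above 0 after miR-365a.

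Set side by side over comparisons that share no NC array, 15 of the 35 genes lay above 0 after both microRNAs and 0 lay below 0 after both. Another 9 lay above 0 after miR-193b only and 11 after miR-365a only. Over all genes 59.6% had the same sign in both, a larger share than the 15 of these 35. The miR-365a effect differed from the miR-193b effect for 4 of 35 genes (11.4%, against 3.47% of all genes, 1.09% higher and 2.38% lower): it was higher for Marveld2, Cgn and Spint1 and lower for Cldn12. That count was 3 without NC 2 and 0 without any other array or with slide as a block. MicroRNA and set changed together, so they cannot be told apart in this difference.

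The level of several junction genes differed between the NC arrays of the sets. Against NC 1 and 2, NC 3 and 4 were higher for Cdh3 (0.47), Dsp (0.52), Pkp1 (1.02), Dsc2 (1.42), Dsg1a, Cldn4 (2.38), Cldn7 (1.95) and Spint1 (1.13) and lower for Marveld2 (-0.50) and Tjp1 (-0.51). That is 10 of 35 (28.6%), against 15.5% of all genes (11.5% higher and 3.97% lower), with 4 of the 10 desmosome genes higher (limma, adjusted p under 0.05). Dsg1a, in both counts, could be tested only because it was well above background in the 0.6 set; without it the counts were 9 of 34 (26.5%) and 3 of 9. The count was 2, Cldn4 and Cldn7, without NC 4 and 5 to 7 without any other array. In all 26 of 35 lay above 0 (74.3%, against 61.1% of all genes). Dsg1a was at least 2.46-fold higher, a bound taken against the dimmest signal well above background on each NC array of the 0.2 set. Cldn4 read -0.92 and -1.35 on NC 1 and 2 and 0.95 and 1.55 on NC 3 and 4, groups far apart. Vim, vimentin of mesenchymal and spindle cells, went the other way. It was well above background on NC 1 and 2 and not on NC 3 and 4, where it was at least 8.10-fold lower. It entered the test only through arrays of the 0.2 set, so its value is no support for a difference between the sets. Vim was uneven within the 0.6 set, at -4.18 on miR-365a 1 and -8.96 on miR-365a 2, and well above background on only 1 of these. Of the 5 mesenchymal markers 3 were well above background on NC 1 and 2 and 1 to 2 on NC 3 and 4. Their summed signals were 3.18 to 3.92 and 4.65 to 9.24 times the 75th percentile. Nearly all of that signal was Fn1, which differed by 0.96 between the sets and was not called (adjusted p 0.18, limma). Of 20 tested regulators of junction genes, 2 were called higher and 2 lower on NC 3 and 4 (20%, against 15.5% of all genes). The junction repressors Zeb1 and Twist1 were lower, by -2.27 and -1.59 (adjusted p 0.015 and 0.014, limma). Zeb1 was well above background on only 1 of NC 3 and 4. Grhl1 and Esrp2 were higher, by 0.56 and 0.62 (adjusted p 0.022 and 0.044, limma). The repressors Snai1, Snai2, Zeb2 and Twist2 were not called. Summed signals of the 5 endothelial markers were 1.13 to 1.56 on NC 1 and 2 and 3.37 to 4.29 on NC 3 and 4. These sums were mostly Kdr, which was higher by 1.57 (adjusted p 0.014, limma). Pecam1, the only other endothelial marker tested, differed by -0.03 (adjusted p 0.93, limma). Summed signals of the 6 leukocyte markers were 0.806 to 0.950 and 1.28 to 1.65, with Cd3e higher by 0.88 (adjusted p 0.027, limma). The part of these genes in the junction gene levels was not tested. Amount label, slide and any difference between cultures cannot be told apart here.

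**Figure D5:**
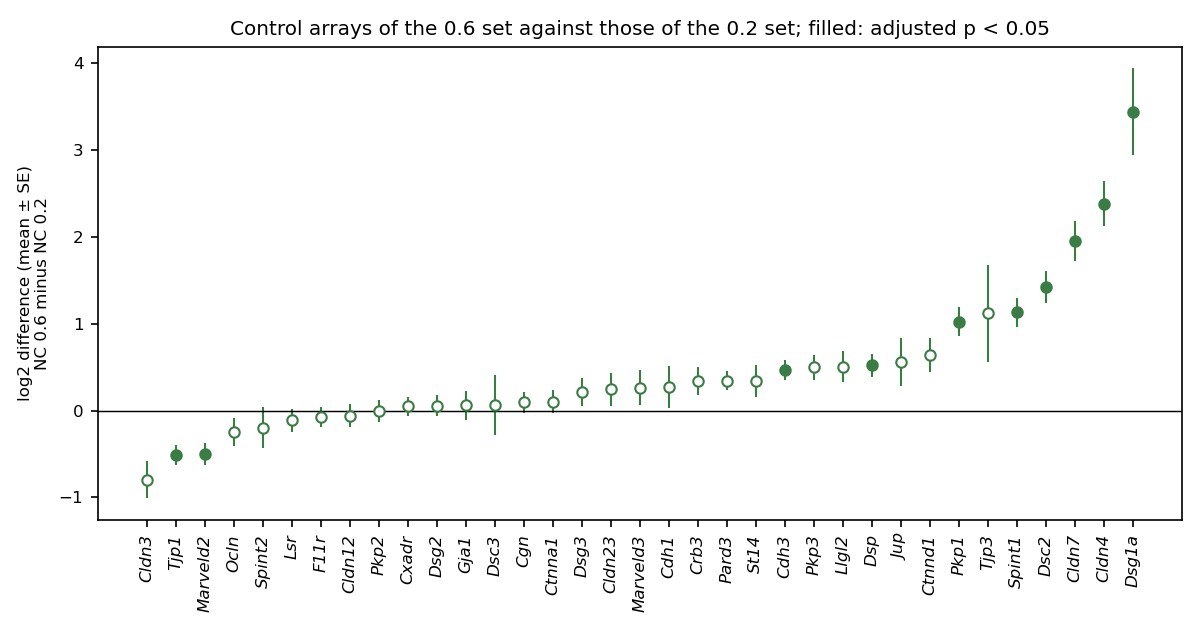
Log2 difference between the NC arrays of the 0.6 set and those of the 0.2 set for the 35 tested junction genes, with standard errors, in order of size. Filled points passed an adjusted p of 0.05: 8 genes were higher in the 0.6 set, Cldn4 and Cldn7 among them, and Marveld2 and Tjp1 were lower.

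Of 67 further adhesion and polarity genes, 43 were tested. After miR-193b 1 was higher and 1 lower, and after miR-365a 3 were higher and 4 lower, with medians of 0.00 and 0.02. The shares called were 4.65% and 16.3%, against 2.86% and 15.8% of all genes. Prkci, the atypical protein kinase C of the PAR complex, fell after both, by 0.68 ± 0.11 (adjusted p 0.040) and 0.62 ± 0.11 (adjusted p 0.019, limma). Dsg1b was called higher after miR-193b (1.55, adjusted p 0.026) from signals not well above background on any array of that set. After miR-365a Ctnnb1, beta-catenin, rose by 0.83 ± 0.11 (adjusted p 0.0077), Dlg1, a polarity scaffold, by 0.77 ± 0.18 (0.037) and Prss8, the protease prostasin, by 0.97 ± 0.16 (0.015). Nectin1, an immunoglobulin-type adhesion receptor of adherens junctions, fell by 0.65 ± 0.11 (adjusted p 0.014) and Ctnnal1, an alpha-catenin relative, by 0.73 ± 0.14 (0.022, limma).

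Of 22 transcription and splicing regulators known for junction genes, 20 were tested, and 1 (5%) was called after miR-193b and 5 (25%) after miR-365a, against 2.86% and 15.8% of all genes. Grhl1, a grainyhead factor that activates desmosomal genes, rose after miR-193b by 0.83 ± 0.11 (adjusted p 0.025, limma). After miR-365a Elf3 rose by 0.83 ± 0.14 (adjusted p 0.015), Esrp2, an epithelial splicing factor, by 0.89 ± 0.15 (0.016) and Twist2 by 1.13 ± 0.25 (0.030), while Klf4 fell by 0.91 ± 0.16 (0.016, limma). Zeb2, a repressor of E-cadherin and 1 of the 5, was well above background only on the miR-365a arrays, at least 1.44-fold above NC 3 and 4. It entered the test only through those arrays, so its call is no support for a rise. The 25% that counts it is then no support for a share above 15.8%. Genes of other cell types were set beside these. The mural cell receptor Pdgfrb, on the fibroblast list, was at least 2.19-fold higher after miR-365a. It too entered the test only through those arrays, so its value is no support for a rise. The other tested genes of that list, Pdgfra and Col1a2, lay below 0, at -0.27 and -0.22, neither called. After miR-365a 3 to 4 of 7 fibroblast markers were well above background, against 2 of 7 on NC 3 and 4. The summed signal of the 7 was 0.095 to 0.126 of the array's 75th percentile after miR-365a, against 0.0823 to 0.115, which overlap. That of the 6 leukocyte markers was 1.87 to 2.16 against 1.28 to 1.65, with Cd68 at 0.54 (adjusted p 0.093, limma). Of the 6 keratinocyte markers tested, 3 lay above 0 and 3 below 0 after miR-365a, with a median of -0.40. Krt5, Krt10 and Krt14 lay near 0, at 0.005, 0.007 and 0.095. Trp63, Itga6 and Col17a1 lay at -0.83, -0.80 and -0.81. The summed signal of that list, mostly Krt5 and Krt14, was 540 to 669 after miR-365a and 588 to 642 on NC 3 and 4, which overlap. Itga6, a keratinocyte integrin, alone of the 6 was called and fell by 0.80 ± 0.14 (adjusted p 0.017, limma). The simple-epithelium keratin Krt8 rose by 0.61 ± 0.14 (adjusted p 0.038, limma). Their part in the junction gene differences was not tested.

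RefSeq promoters (GRCm38.p6) were at hand for 24 of the 40 genes. The 250 bases before the start were searched on both strands for CACCTG, an E-box bound by Snail and ZEB repressors, for AACCGG, a grainyhead core, and for the full grainyhead site AACCGGTT, which contains that core. CACCTG was in the window of 11 of 24 genes (45.8%, against 19.4% of 27025 genes): F11r, Ocln, Cldn4, Cldn7, Crb3, Lsr, Pard3, Spint2, Tjp3, Cldn6 and Gjb2. Of these, Cldn6 and Gjb2 were not well above background on any array. AACCGG was in 4 of 24 (16.7%, against 6.40%), Cgn, Cldn7, Ocln and Spint1, and AACCGGTT in 0 of 24 (0.137% of all genes). The windows of Cldn12 and Marveld2 held none of these letters. The windows of F11r, Cgn and Spint1 are shown to place a match, in capitals; a match is a description and not a bound site.
F11r, chr1:171437311-171437560, plus strand: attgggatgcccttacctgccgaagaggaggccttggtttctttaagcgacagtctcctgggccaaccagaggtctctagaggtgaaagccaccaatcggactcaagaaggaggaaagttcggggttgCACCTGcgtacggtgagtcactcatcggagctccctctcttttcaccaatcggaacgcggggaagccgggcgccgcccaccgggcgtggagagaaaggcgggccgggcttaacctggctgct
Cgn, chr3:94786483-94786732, minus strand: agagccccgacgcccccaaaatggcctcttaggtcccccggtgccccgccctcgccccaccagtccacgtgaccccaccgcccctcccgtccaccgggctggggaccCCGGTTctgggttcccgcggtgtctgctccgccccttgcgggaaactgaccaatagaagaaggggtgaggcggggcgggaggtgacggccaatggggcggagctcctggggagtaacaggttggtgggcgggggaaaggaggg
Spint1, chr2:119237110-119237359, plus strand: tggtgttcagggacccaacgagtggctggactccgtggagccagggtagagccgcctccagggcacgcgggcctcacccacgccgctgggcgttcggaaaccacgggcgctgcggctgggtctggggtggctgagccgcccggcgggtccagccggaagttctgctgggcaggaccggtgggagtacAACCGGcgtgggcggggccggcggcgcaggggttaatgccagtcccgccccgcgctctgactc
Of the 6 genes called after either microRNA, F11r and Pard3 held CACCTG (Pard3 in 1 of its 2 windows), Cgn and Spint1 held AACCGG, and Cldn12 and Marveld2 held neither.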

How the data were processed

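The 8 samples were single-colour arrays labelled with Cy3. Spot values are intensity (Agilent Feature Extraction 10.7.3.1, processed signal, per the file headers). The authors also deposited log2 values of these arrays, whose processing is not given in the sources used here beyond limma in the submitters' processing notes. Each column of it correlated best with its own array (r 0.965 to 0.981). Outlier-marked spots were left out, log2 signals were centred on each array's 75th percentile, and spots of a probe were averaged. Symbols came from the files or from RefSeq by accession or synonym. Positions are those of the files (mm9), given from the lower to the higher base.

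Tested were the 17856 genes whose brightest probe exceeded background well on both arrays of a group in a set. Limma 3.58.1 (lmFit, eBayes, R 4.3.3) was fitted to all 8 arrays with terms for set, miR-193b and miR-365a, so each microRNA was compared with the 2 NC arrays of its set. Residual degrees of freedom were 4, and eBayes added 2.31 from its prior. P values are two-sided and were adjusted by Benjamini and Hochberg over all genes tested. Errors are standard errors. The fit was tested on simulated data. A fold bound sets the bright group's mean against the dimmest signal well above background on each array of the dim group.

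Values on every array are given for members called in either comparison or between the effects, and for Cdh1, Dsp, Jup, Ocln, Tjp1, Cldn1 and Gja1; of the other lists the called genes are named, except 1 that is not reported here. Other members named with values were picked after their values were seen. The members and lists were chosen with earlier results of these data known. Alternatives were normexp background, quantile normalization, the deposited log2 values, other filters, a trended robust variance, each set alone, slide as a block, the mean of a gene's probes and leaving out each array.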

Additional observations from a re-analysis of the deposited data

Results flagged for a closer look

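For 4 genes the miR-365a effect differed from the miR-193b effect (limma contrast, adjusted p under 0.05): by 1.07 for Marveld2, 1.05 for Cgn, -1.48 for Cldn12 and 1.88 for Spint1. MicroRNA and set cannot be told apart in these differences. Over the 4 NC arrays, Cdh1 was farthest from the others on NC 4, with a gap of 0.886 of the whole range, and Lsr on NC 3, with a gap of 0.840 of it. Chance gives gaps of this size in about 1 in 20 groups, and all 40 genes were screened, so a few such gaps are not unusual. These 4 arrays also come from both sets.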

How the results depend on the processing

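After miR-193b the calls depended on the settings. Over all genes 510 were called, against 972 with normexp background (70.6% of them higher, against 60%), 844 with the deposited values, 872 with probes well above background on all 8 arrays, 1039 with a trended robust variance, 314 with the mean of probes, 170 with slide as a block, 11 without a filter and 0 with each set fitted alone (3106 at an unadjusted p under 0.05, limma), and 9 to 277 with 1 array left out. Of the junction genes 2 were called, against 4 with the deposited values, 6 with the trended variance, and 0 without a filter, with the set alone or with slide as a block (12, 9 and 8 unadjusted, limma), and 0 with any array left out (7 to 14 unadjusted). Their median of 0.28 was 0.18 with the deposited values, 0.19 with slide as a block and 0.17 to 0.28 with 1 array left out. After miR-365a 2815 genes were called, 1057 without a filter and 588 to 2831 with 1 array left out. The 6 junction genes were 4 to 9 in the other settings and 1 to 5, with their median at -0.011 to 0.33, when 1 array was left out. The 4 genes with different effects were 0 without a filter (12 unadjusted, limma) and 0 with slide as a block (9 unadjusted), 0 to 3 with 1 array left out and 4 to 6 in the other settings. The 10 genes that differed between NC arrays were 6 without a filter, 7 to 14 in the other settings and 2 to 7 with 1 array left out. Leaving out an array also removes a degree of freedom, and no filter adds dim genes to the adjustment. Slide as a block removes degrees of freedom too, and it leaves the miR-193b difference to NC 1 and miR-193b 1, which share slide 1. Other causes were not tested.

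Signs turned only for small differences that were not called: Marveld2 after miR-193b (0.0082 with normexp, 0.0076 with the deposited values, 0.030 without miR-193b 1, and -0.093 to 0.076 with 1 array left out), Tjp1 after miR-193b (0.083 with slide as a block, and -0.077 to 0.050 with 1 array left out, above 0 without NC 2 or miR-193b 2), Gja1 after miR-193b (-0.088 to 0.23 with 1 array left out, below 0 without NC 2 or miR-193b 1), Jup after miR-193b (-0.039 without NC 2 to 0.67 without NC 1) and Dsp after miR-365a (0.0011 with the mean of probes, and -0.22 without miR-365a 1 to 0.021 without miR-365a 2). For the 12 genes followed through the alternatives (those with values on every array, except Cldn1), every other difference from NC kept its sign; the other genes named were not followed there. Marveld2 after miR-365a kept its call in all 17 alternatives. No paired analysis was possible because the labels carry no replicate numbers and the numbers used here follow the order of samples. Signal over background limited Dsg1a, Dsc3 and the 5 untested genes.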
